A study of Mus musculus with 6 samples.

Results

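The genes described here encode 7 proteins that carry heme, its precursors, iron or supporting substrates across mitochondrial and cell membranes: Slc25a37, Slc25a38, Slc25a39, Abcb10, Abcb6, Tmem14c and Flvcr1. They were chosen by name: every non-control probe whose gene name in the scanner files was 1 of the 7 was taken. This gave 7 probes of 6 genes, among 19241 genes and unnamed features with a usable probe. Flvcr1 had no probe under that name. Its RefSeq transcript was carried by a probe named Mfsd7b, an older symbol of the same gene, so Flvcr1 is described from that probe and kept out of the counts over the 6 genes.

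The cells were G1E-ER-GATA-1, a mouse erythroid precursor line without its own GATA-1 that carries GATA-1 fused to the ligand-binding part of the estrogen receptor. There were 2 groups with 3 arrays each, Foxo3 siRNA and nontargeting siRNA. Cells of both groups were electroporated with siRNA at 0 h and at 24 h, were given estradiol at 24 h to switch the fusion protein on, and were harvested at 48 h, so every sample had 24 h of estradiol. Cy3-labelled RNA of each sample was hybridised to its own 1-colour Agilent array. All samples come from 1 cell line in which the fusion protein replaces natural GATA-1, and nothing in the labels says that replicates were separate cultures, so the p-values cover the spread between these 6 arrays, which may be technical. Messenger RNA was measured, not protein or transport.

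Heme is made partly inside and partly outside mitochondria, so its intermediates and its iron have to cross the mitochondrial membranes. Glycine enters the matrix for the first step, porphyrin intermediates are made in the cytosol and return for the last steps, and ferrous iron is imported to be inserted by ferrochelatase. Maturing red cells make very large amounts of heme, and loss of several of these transporters gives anaemia in mice, zebrafish or humans.

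The siRNA target was low in the treated samples on 1 of its 2 probes. The Foxo3 probe matched to the RefSeq transcript read 0.726, 0.409 and 0.270 times the array's 75th percentile with Foxo3 siRNA, against 2.34, 2.44 and 2.18 with nontargeting siRNA, a fitted level of 18.6% of that with nontargeting siRNA (limma adjusted p = 0.00542). Of the treated spots 2 of 3 were well above background, so the percentage is approximate. The other Foxo3 probe, which carries the accession of a cDNA clone, was not called (log2 fold change 0.25, adjusted p = 0.259).

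The sequences below belong to the probes whose results differ most: the Abcb6 probe, which was higher with Foxo3 siRNA, the Slc25a39 probe, which was lower, and the dimmer of the 2 Slc25a37 probes, which disagreed with its partner. All letters are 5′ to 3′ as on the array, in lower case because no part of a probe is singled out, and coordinates are the array's own, on mouse build mm9. The Abcb6 probe (A_51_P161342) lies at chr1:75168430-75168489 on the minus strand, and its first 30 of 60 bases are shown. The Slc25a39 probe (A_51_P121455) is placed at chr11:102266350-102267022 on the minus strand, a stretch that holds 613 bases more than the probe's 60, so its sequence joins separate pieces of the genome as a spliced transcript does. The dimmer Slc25a37 probe (A_55_P2032445) lies at chr14:69902797-69902856 on the minus strand.
Abcb6 probe: gtccctgaagaatctaaacctcaggacacg
Slc25a39 probe: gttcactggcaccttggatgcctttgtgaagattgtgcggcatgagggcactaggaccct
Slc25a37 dimmer probe: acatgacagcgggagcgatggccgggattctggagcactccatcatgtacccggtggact

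The promoters of Abcb6 and Tmem14c, the genes called higher, are shown next. The letters are the 250 bases before the annotated start from RefSeq (GRCm38.p6), with the motif CCAAT, on either strand, in capitals. The Abcb6 window is chr1:75180393-75180642 on the minus strand and the Tmem14c window is chr13:41016000-41016249 on the plus strand.
Abcb6 promoter: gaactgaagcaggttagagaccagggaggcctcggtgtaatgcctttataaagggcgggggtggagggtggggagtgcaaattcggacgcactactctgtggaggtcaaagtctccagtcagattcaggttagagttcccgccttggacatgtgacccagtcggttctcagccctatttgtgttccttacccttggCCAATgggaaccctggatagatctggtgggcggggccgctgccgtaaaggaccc
Tmem14c promoter: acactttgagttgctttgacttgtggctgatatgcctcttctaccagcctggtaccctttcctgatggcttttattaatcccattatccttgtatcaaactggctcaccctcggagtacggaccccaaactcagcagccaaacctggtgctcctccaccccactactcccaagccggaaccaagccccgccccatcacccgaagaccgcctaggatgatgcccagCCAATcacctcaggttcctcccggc
CCAAT began 54 bases before the start of Abcb6 and 25 bases before that of Tmem14c. The promoter table used here matched 6 of the 7 genes, all but Slc25a37, and 4 motifs were searched on both strands, each apart from the others, so that matches of different motifs may share bases. CCAAT was in 3 of the 6 windows (Flvcr1 held 2 copies), against 33.8% of 32851 mouse promoters of the same length. The GC box GGGCGG was in 4 of 6, with 5 copies before Slc25a39, against 32.7% of all promoters. The GATA spelling AGATAA, with T also allowed as its first letter and G as its last, was in 0 of 6, against 26.5% of all promoters, and the forkhead spelling GTAAACA in 0 of 6, against 3.17%. A match or its absence describes these letters in this window and nothing about binding of a factor.

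Across the 6 genes found by name, 2 rose with Foxo3 siRNA (Abcb6 and Tmem14c), 1 fell (Slc25a39) and 3 did not pass the test (Slc25a37, Abcb10 and Slc25a38). Of all 19241 genes, the same limma test at an adjusted p under 0.05 called 13.0% higher and 13.1% lower. Groups were wholly apart, meaning that no array of one group lay within the range of the other, for 3 of the 6 genes, and for 51.2% of all genes. The median log2 fold change of the 6 genes was −0.04, against −0.16 over all genes. The sign of this gap depended on which probes were kept. When each probe had to be well above background on every array, the all-gene median was −0.01. Without any filtering the all-gene median was 0.02. The 6 genes stayed at −0.04 in both cases, and so lay below all genes rather than above. The counts of members are small and are read only gene by gene below. Every member probe was well above background on all 6 arrays, was unsaturated and had 1 spot per array, with a scanner error of 10.0% to 11.1% of its signal.

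Abcb6, an ATP-binding cassette protein that moves porphyrins and has been placed at the outer mitochondrial membrane as well as in other membranes, showed the largest change of the 7 genes in this fit. Its signal was 21.7, 23.2 and 24.3 times the array's 75th percentile with Foxo3 siRNA, against 13.2, 13.9 and 12.5 with nontargeting siRNA. All treated arrays were above all nontargeting arrays, and the lowest treated value belonged to the array that shared a slide row with the controls. The means were 23.1 ± 1.30 with Foxo3 siRNA and 13.2 ± 0.709 with nontargeting siRNA (SD, n = 3 each), a log2 fold change of 0.80 (SE 0.109, limma adjusted p = 0.00482), or 1.75-fold (95% interval 1.46 to 2.09). Among all genes, 93.7% had a lower log2 fold change. The change stayed between 0.72 and 1.19 over 19 other settings, and it kept an adjusted p under 0.05 in 14 of them.

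Tmem14c, an inner membrane protein needed in mouse erythroid cells for protoporphyrinogen IX to enter the matrix, rose less. It read 106, 110 and 129 times the 75th percentile with Foxo3 siRNA, against 80.5, 88.1 and 83.3 with nontargeting siRNA. The groups did not overlap, and the third treated array stood highest. The means were 115 ± 11.8 with Foxo3 siRNA and 83.9 ± 3.84 with nontargeting siRNA (SD, n = 3 each), a log2 fold change of 0.45 (SE 0.120, adjusted p = 0.0379), or 1.37-fold (95% interval 1.12 to 1.67). The call was lost in 11 of 19 other settings, although the fold change was positive in all 19 (0.34 to 0.84).

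Slc25a39, the mitochondrial glutathione carrier, whose loss disturbs heme synthesis in zebrafish, was the member that fell. It read 17.2, 14.9 and 15.7 times the 75th percentile with Foxo3 siRNA, against 22.7, 23.1 and 20.2 with nontargeting siRNA. All treated values lay below all nontargeting values. The means were 15.9 ± 1.19 with Foxo3 siRNA and 22.0 ± 1.59 with nontargeting siRNA (SD, n = 3 each), a log2 fold change of −0.47 (SE 0.118, adjusted p = 0.0325), or 72.3% of the nontargeting level. The call was lost in 12 of 19 other settings. The fold change was negative in all 19, but shrank to −0.16 (adjusted p = 0.747) with arrays scaled to their median and to −0.08 (adjusted p = 0.981) with arrays scaled to spike-in controls.

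**Figure D1:**
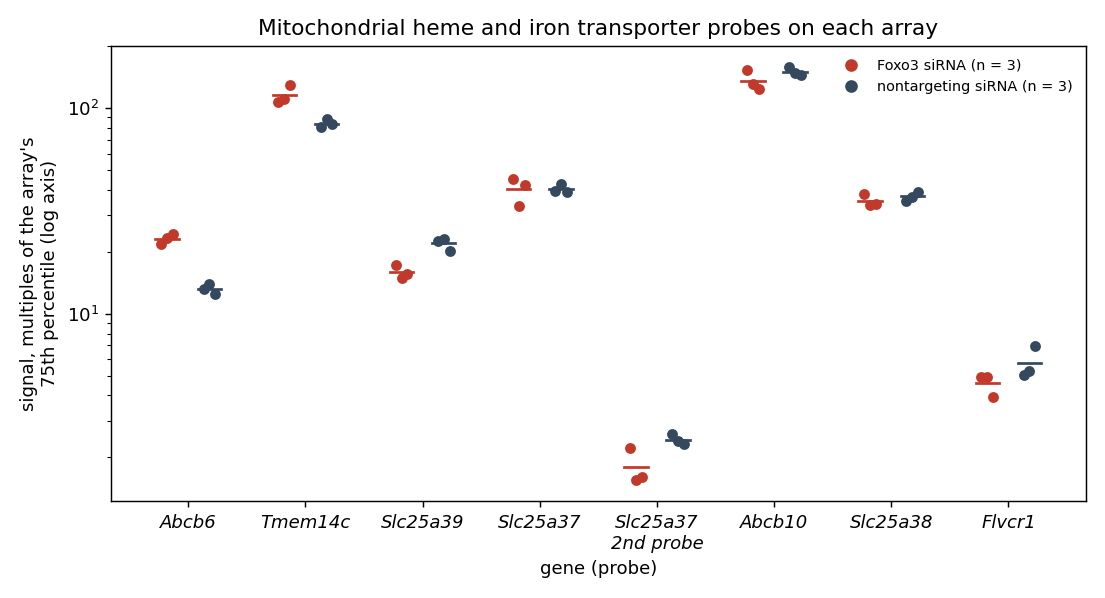
Signal of each transporter probe on each array, in multiples of that array's 75th percentile on a log axis, with Foxo3 siRNA (red, left) and nontargeting siRNA (dark, right). Points are arrays and bars are group means (n = 3 each); Abcb6 and Tmem14c are wholly above, and Slc25a39, the dimmer Slc25a37 probe and Flvcr1 wholly below, their nontargeting values.

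Slc25a37 is mitoferrin-1, the iron importer of the inner membrane of erythroid mitochondria, and its 2 probes gave different pictures. The brighter probe (A_51_P343429, chr14:69860020-69860079, minus strand) read 45.2, 33.3 and 42.1 times the 75th percentile with Foxo3 siRNA, against 39.3, 42.5 and 39.1 with nontargeting siRNA. Those groups overlapped (log2 fold change −0.01, 95% interval −0.36 to 0.33, adjusted p = 0.944), and the treated arrays were the more scattered (coefficient of variation 15.4% with Foxo3 siRNA and 4.78% with nontargeting siRNA). The dimmer probe, shown above, read 2.23, 1.55 and 1.61 with Foxo3 siRNA, against 2.59, 2.39 and 2.33 with nontargeting siRNA.

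The dimmer probe's groups did not overlap, but its log2 fold change of −0.46 (95% interval −0.86 to −0.06) had an adjusted p of 0.0856 and was not called. It passed the threshold in 2 of 18 other settings. These were the filter set to all 6 arrays (adjusted p = 0.0428) and the fit without the first Foxo3 siRNA array (−0.62, adjusted p = 0.0235). The fold change was negative in all 18, but shrank to −0.15 with arrays scaled to their median and to −0.07 with arrays scaled to spike-in controls. With slide row as a block it was −0.13. The probes lie 42777 bases apart on the mm9 map, the brighter one further along the gene's strand. The log2 signal of the dimmer probe minus that of the brighter, taken within each array, averaged −4.49 with Foxo3 siRNA and −4.05 with nontargeting siRNA, a difference of −0.44 with no overlap (exact permutation p = 0.1, two-sided, n = 3 each, the smallest that 20 splits allow). Which transcripts each probe detects was not tested.

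Abcb10 is an inner membrane transporter that binds and stabilises mitoferrin-1 in mouse erythroid cells. Its probe (A_55_P1963529, chr8:126476407-126476466, minus strand) read 152, 131 and 123 times the 75th percentile with Foxo3 siRNA, against 159, 147 and 144 with nontargeting siRNA. The groups overlapped through the first treated array, and the log2 fold change was −0.15 (95% interval −0.45 to 0.15, adjusted p = 0.368). This equals the median of all genes to within 0.0043 in the main fit, but that median was −0.01 with the filter on all 6 arrays.

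Slc25a38, which imports glycine for the first step of heme synthesis and is mutated in a human congenital sideroblastic anaemia, did not pass the test. Its probe (A_55_P1964068, chr9:120033376-120033435, plus strand) read 38.2, 33.8 and 34.2 times the 75th percentile with Foxo3 siRNA, against 35.3, 37.1 and 39.1 with nontargeting siRNA. The groups overlapped, with a log2 fold change of −0.07 (95% interval −0.34 to 0.19, adjusted p = 0.633). On this scale the interval, given as a ratio, ran from 0.792 to 1.14. It does not cover the choice of scale: the log2 fold change was 0.24 with arrays scaled to their median and 0.31 with spike-in scaling.

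Flvcr1 makes a cell-surface heme exporter and a shorter mitochondrial form and is also known as a choline transporter. Its probe, A_51_P293069 at chr1:192829831-192829890 on the minus strand, was not assigned to either form. It read 4.90, 4.92 and 3.95 times the 75th percentile with Foxo3 siRNA, against 5.02, 5.28 and 6.99 with nontargeting siRNA. The groups were apart by a small margin and the third nontargeting array stood above the rest. The log2 fold change was −0.32 (95% interval −0.73 to 0.09, adjusted p = 0.193), which did not pass the test. Adding Flvcr1 left the counts at 2 higher and 1 lower and put the median of the 7 genes at −0.07.

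**Figure D2:**
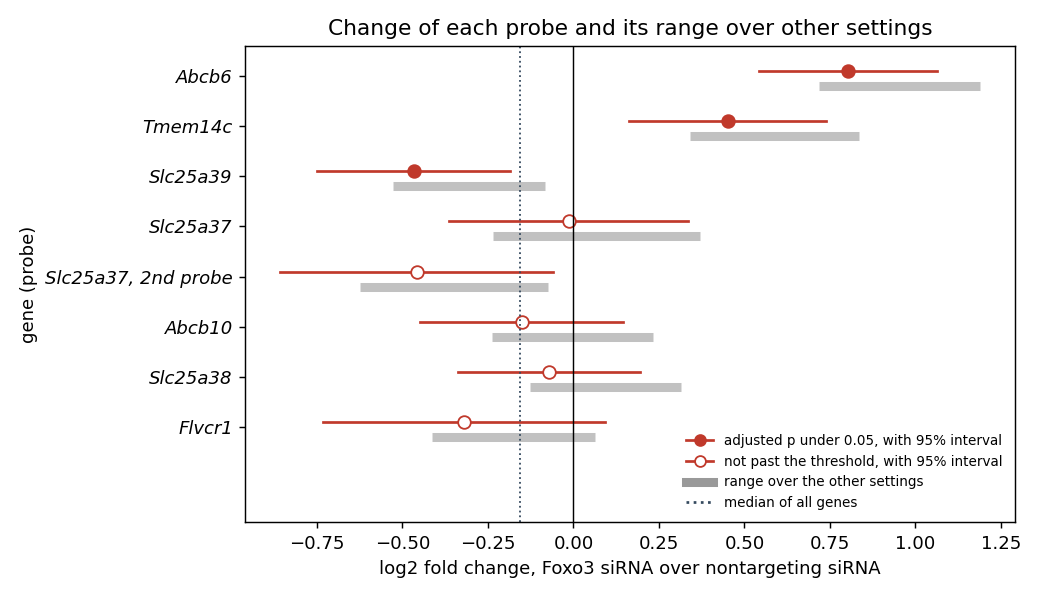
Log2 fold change of each probe, Foxo3 siRNA over nontargeting siRNA, with its 95% interval (red; filled where the adjusted p is under 0.05) and the range over the other settings (grey). Abcb6 ranges between 0.72 and 1.19 over those settings, Slc25a39 between −0.53 and −0.08, and the grey ranges of the brighter Slc25a37 probe, Abcb10, Slc25a38 and Flvcr1 cross 0.

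How far each change goes from 0 rests on the scale set for the arrays. The 75th percentile of raw signal was higher with Foxo3 siRNA by 0.38 on the log2 scale, whereas the 6 spike-in controls differed by 0.0005 on average (from −0.04 to 0.06). The median log2 fold change of all genes was −0.16 on the 75th percentile scale, 0.16 with arrays scaled to their median and 0.23 with spike-in scaling. Of the genes called, 49.8% were higher on the first scale, 78.7% on the second and 83.4% on the third. Relative to the median of all genes, a difference that these scales do not alter, Abcb6 stood at 0.96, Tmem14c at 0.61 and Slc25a39 at −0.31. The brighter Slc25a37 probe stood at 0.14, Slc25a38 at 0.08, Abcb10 at 0.0043 and Flvcr1 at −0.16. These distances hold for the probes kept in the main fit. The all-gene median was −0.01 when every array had to detect a probe, and 0.02 when probes were not filtered. With median scaling Abcb6 and Tmem14c were called and Slc25a39 was not, and with spike-in scaling none of the 3 was (Abcb6 1.19, adjusted p = 0.132).

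Ratios between genes of the same array do not depend on that scale. The ratio change was computed for all 21 pairs of the 7 genes on their brightest probes, a comparison added after the values were seen. Abcb6 relative to Slc25a39 gave a log2 difference of signals of 0.34, 0.64 and 0.63 with Foxo3 siRNA, against −0.77, −0.73 and −0.69 with nontargeting siRNA. The ratio was therefore 2.41 times as high in treated cells, the widest shift among the pairs. These differences compare arrays for a given pair of probes and say nothing of which gene has more RNA.

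Abcb6 relative to Abcb10 rose 1.94 times on the same measure (log2 change 0.95), Abcb6 relative to Slc25a38 1.83 times and Abcb6 relative to Slc25a37 1.76 times. Tmem14c relative to Slc25a39 shifted by 0.92 (1.89 times), and Abcb6 relative to Tmem14c by 0.35 (1.28 times). Slc25a37, Slc25a38 and Abcb10 shifted least against each other, by 0.06 to 0.14, with overlapping groups in all 3 pairs. Groups did not overlap for 14 of the 21 pairs, which are not independent because each gene stands in several. The share over all pairs of genes was not computed, so this count has no reference. For single genes the share was 51.2%. With 3 arrays a group the two-sided exact permutation p cannot go below 0.1, and those 14 pairs reached it (0.15 after Benjamini-Hochberg adjustment over 21 pairs), so no pair can pass 0.05 by this exact test.

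**Figure D3:**
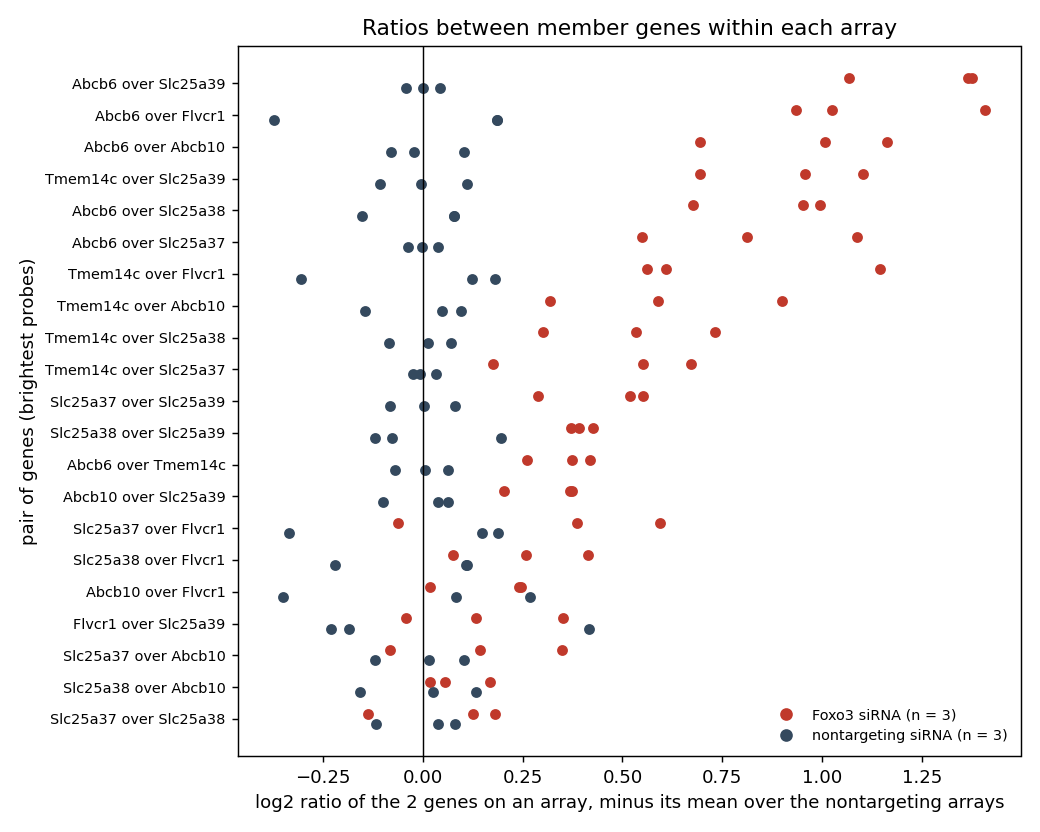
Log2 ratio of the brightest probes of each pair of genes on each array, after subtraction of the pair's mean over the nontargeting arrays; red points are Foxo3 siRNA arrays and dark points nontargeting siRNA arrays (n = 3 each). Pairs are sorted by the difference between groups: Abcb6 over Slc25a39 (1.27) is at the top and Slc25a37 over Slc25a38 (0.06) at the bottom.

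The position of arrays on the slide moved with the groups. All arrays were on 1 slide: the 3 nontargeting arrays and the first Foxo3 siRNA array lay in row 1 and the other Foxo3 siRNA arrays in row 2. Within row 1 the single treated array gave Abcb6 a log2 fold change of 0.72 (adjusted p = 0.111), Tmem14c 0.34 (adjusted p = 0.302) and Slc25a39 −0.35 (adjusted p = 0.317), with the lone treated array assumed to vary as the controls do. With row as a block the same 3 changes had adjusted p-values of 0.0525, 0.254 and 0.232. The treated array of row 1 was above all controls for Abcb6 and Tmem14c and below all of them for Slc25a39. The third Foxo3 siRNA array had fewest spots well above background (20343, against 30619 to 37532 on the other 5 arrays).

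The marker genes of the line were read from the same arrays. Of 11 erythroid markers, 10 were well above background on all 6 arrays, and their summed signal was 1250 to 1462 times the 75th percentile with Foxo3 siRNA, against 1563 to 1611 with nontargeting siRNA. Of the 11, 2 were called higher and 1 lower, and without Alas2, the brightest and itself not called, the sums overlapped (606 to 672 with Foxo3 siRNA and 606 to 635 with nontargeting siRNA). The 9 tested of 10 megakaryocyte markers summed to 115 to 146 with Foxo3 siRNA and 174 to 181 with nontargeting siRNA. Of these, 4 were called higher and 1 lower, and without Itgb3, the brightest and the one called lower, the sums overlapped (39.7 to 71.9 with Foxo3 siRNA and 38.8 to 59.7 with nontargeting siRNA). Of all genes, 13.0% were called higher and 13.1% lower. Over 19 other settings the megakaryocyte count ran from 2 to 4 higher and 0 to 2 lower. The erythroid count ran from 0 to 2 in each direction. The 5 tested of 9 myeloid markers, none called in either direction, summed to 235 to 302 with Foxo3 siRNA and 303 to 396 with nontargeting siRNA. Without Csf3r, the brightest, the myeloid sums overlapped (65.2 to 72.1 with Foxo3 siRNA and 71.2 to 116 with nontargeting siRNA). Of 8 lymphoid markers 3 were tested, with sums of 14.6 to 16.6 with Foxo3 siRNA and 15.1 to 23.2 with nontargeting siRNA. Of 8 stromal markers 2 were tested, and those sums were 0.488 to 0.673 with Foxo3 siRNA and 0.620 to 0.877 with nontargeting siRNA. The part of these differences in the transporter results was not tested.

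Closely related carriers were set beside the 7 genes. Slc25a40, the near copy of Slc25a39 and also a glutathione carrier, moved opposite to it at 0.62 (adjusted p = 0.0241), with means of 1.20 with Foxo3 siRNA and 0.777 with nontargeting siRNA. Abcb8, another inner membrane transporter, changed by 0.58 (adjusted p = 0.0259). Tmem14a, a relative of Tmem14c, had a log2 fold change of −0.18 (adjusted p = 0.365), while its dimmer probe gave 0.63. Slc25a28, the mitoferrin of tissues outside the erythroid lineage, had 0.07 (adjusted p = 0.63). Of the 5 relatives listed, 2 were called higher and 0 lower. The higher count was 0 with spike-in scaling, with no filter, with row as a block and in the authors' deposited table. It was also 0 without array 2 or 3 of either group.

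Among the 9 enzymes of heme synthesis, 3 were called higher and 2 lower, with a median log2 fold change of 0.06. Ppox, which oxidises the protoporphyrinogen that Tmem14c serves, averaged 28.6 with Foxo3 siRNA and 12.5 with nontargeting siRNA (log2 fold change 1.19, adjusted p = 0.00352). Alad, which joins 2 molecules of aminolevulinate in the cytosol, rose by 0.93 (adjusted p = 0.006) and Uros, which closes the porphyrin ring, by 0.72 (adjusted p = 0.00973). Urod, the cytosolic enzyme after Uros, fell by 0.45 (adjusted p = 0.0429). The lower count was 0 with median or spike-in scaling and on leaving out any array but the first Foxo3 siRNA array. The higher count was 1 with spike-in scaling, with row as a block and in the authors' deposited table, and 0 with no filter. In each of these the lower count was 0 as well.

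Heme handling outside the 7 genes had 4 genes called higher and 2 lower of 11. Slc48a1, which carries heme out of lysosomes, fell by 1.35 on the log2 scale, with means of 18.3 with Foxo3 siRNA and 46.3 with nontargeting siRNA (adjusted p = 0.00167). Tspo, an outer membrane protein that binds porphyrins, rose by 1.11 (adjusted p = 0.00253) and Hmox1, the inducible heme-degrading enzyme, by 1.06 (adjusted p = 0.00927). Pgrmc2, a heme-binding chaperone, rose by 0.61 (adjusted p = 0.0321). The higher count was 6 with median scaling, 7 with normexp or the filter on all arrays, 2 with spike-in scaling and 0 within row 1 or with no filter, and it was 2 without Foxo3 siRNA array 2 or 3 or nontargeting array 1 or 3. The lower count was 1 with median scaling, 0 with spike-in scaling and 1 without array 2 or 3 of either group.

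Iron uptake, storage and export had 2 genes called higher and 2 lower of 14. Tfr2, transferrin receptor 2, rose by 1.51 (adjusted p = 0.00191), and Tfrc, the main transferrin receptor of erythroid cells, by 0.60 (adjusted p = 0.0125), while its other probes gave 0.34 and 0.35. Steap3, the endosomal ferrireductase, fell by 0.96 (adjusted p = 0.00288), and Slc40a1, the iron exporter ferroportin, fell by 0.76 (adjusted p = 0.0162). The lower count was 0 with median or spike-in scaling or no filter, and 1 without the third Foxo3 siRNA array or nontargeting array 2 or 3. The higher count was 1 with spike-in scaling or no filter. Both counts were 1 with row as a block and in the authors' deposited table. The following 3 genes, for mitochondrial proteins or iron sensing, did not pass the test. Atp5if1, the inhibitor of the ATP synthase, had −0.33 (adjusted p = 0.0897), Clpp, a matrix protease, 0.17 (adjusted p = 0.259), and Ireb2, an iron-regulatory protein, −0.22 (adjusted p = 0.358). These lists were chosen with earlier results of these data known, and the counts given stand beside the same 13.0% and 13.1% of all genes.

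**Figure D4:**
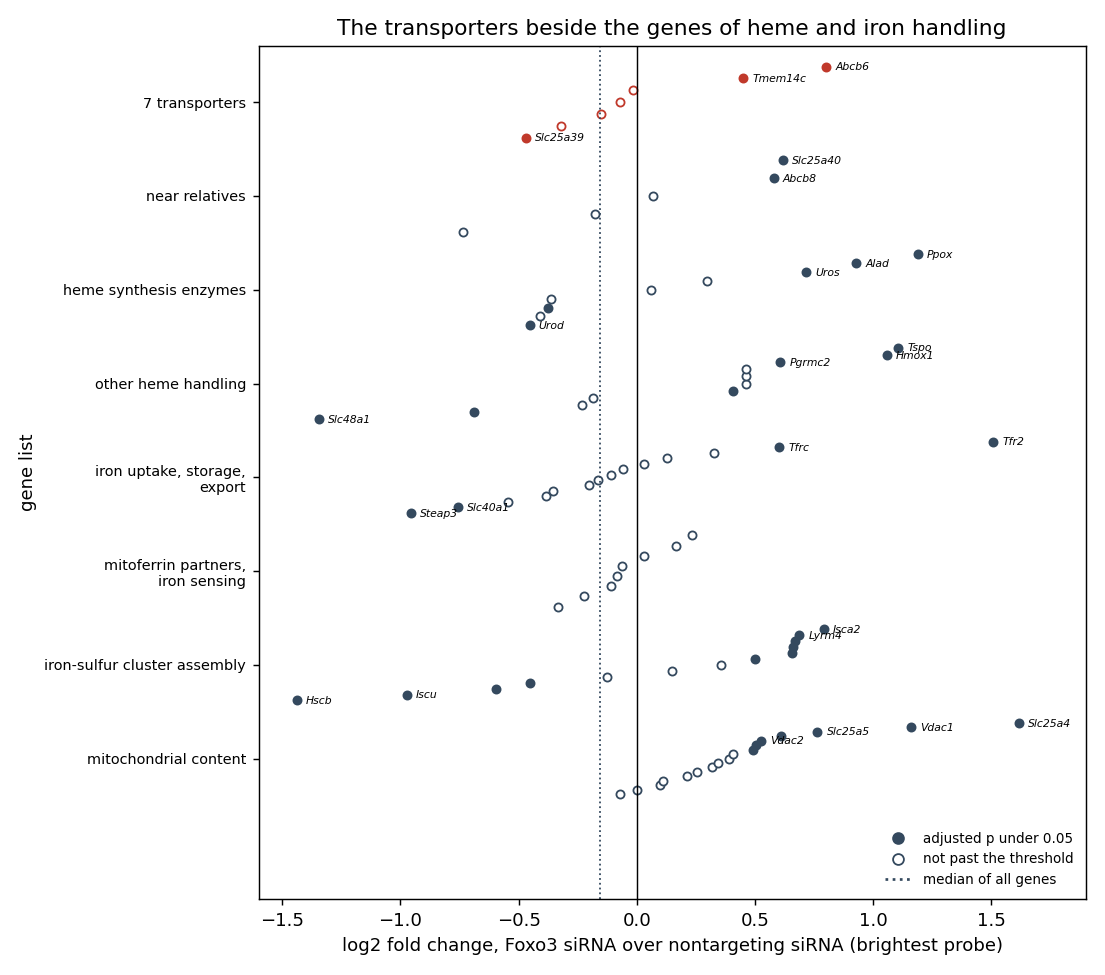
Log2 fold change, Foxo3 siRNA over nontargeting siRNA, of the brightest probe of each tested gene in the 7 transporters (red) and in 7 related lists (dark), filled where the adjusted p is under 0.05, with up to 4 called genes named per list. The dotted line is the median of all genes (−0.16); Abcb6 (0.80) and Ppox (1.19) lie to the right of it and Slc25a39 (−0.47) to the left.

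The genes whose values ran most like each transporter over the 6 arrays were taken from 11597 named genes by Pearson's r, as a description with no test. For Abcb6 they were Ilvbl, Zfp810 and Ttll12 (r = 0.999 or higher), with log2 fold changes of 1.38, 1.26 and 1.33. For Tmem14c they were Tfpt (0.998), Aldh9a1 (0.997) and Chd3 (0.996), and for Slc25a39 Oacyl (0.997), Ccin (0.997) and Cul3 (0.996). For the transporters that were not called they were Fundc2 and Nbdy beside Slc25a38, Zfp874a, Dhps and Tmco6 beside Slc25a37, Traf1, Il24 and Socs4 beside Abcb10, and Shroom1, Atp2b1 and Bzw1 beside Flvcr1 (r from 0.941 to 0.995). All of these values share the same arrays and the same scaling. For the 3 called transporters these values also share a difference between the groups. Each r was among the highest of 11597 over 6 arrays, so a high r can come from that choice alone.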

How the data were processed

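Total RNA of 6 samples, 3 with Foxo3 siRNA and 3 with nontargeting siRNA, was hybridised to 1-colour Agilent arrays. Per the file headers, Agilent Feature Extraction 10.7.3.1 gave each spot a background-subtracted intensity. The authors' deposited table holds the same intensity and, for each spot, the adjusted and unadjusted p-value and log2 fold change, made with limma per the submitters' processing notes. Base 2 was inferred by regressing that fold change on the signals (slope 0.946), and its normalization is not given in the sources used here.

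From 62976 spots, 3671 controls were left out and outlier spots set to missing. The log2 intensity minus each array's 75th percentile was averaged per probe (55681 probes of 60 bases). Probes well above background on all 3 arrays of a group, with at least 2 values per group, were kept (27030). Each gene is represented by its brightest kept probe. Probes were matched to RefSeq genes, 27235 by accession, 3581 by symbol and 563 by synonym, and 24302 had no match. Groups were compared with limma 3.58.1 in R 4.3.3 (lmFit and eBayes, two-sided), adjusted by Benjamini-Hochberg over all kept probes; every adjusted p comes from this model unless credited to the authors. The procedure was tested on simulated data. Changes of 0.5 on the log2 scale were recovered for 2% of such probes when 200 probes changed in all. When 6000 changed, 47.3% were recovered. The number of arrays limits the precision.

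The transporters and the gene lists were chosen with earlier results of these data known. All probes of the transporters and Foxo3 are named, with the 4 smallest adjusted p-values of each list other than cell markers and the 3 genes most correlated with each transporter. Some genes that this rule or the lists would name are not reported here, so lists described without a count are incomplete. The deviations of same-numbered replicates from their group means had correlations of 0.16, −0.31 and 0.11. With 3 arrays a group these cannot decide whether numbers pair samples. The main fit used no pairing because the labels do not state one. Alternatives varied the scaling, background correction, filter, outlier spots, probe summary, left-out arrays and blocks.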

Additional observations from a re-analysis of the deposited data

How the results depend on the processing

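Of the 6 genes found by name, 2 were called higher and 1 lower, with a median log2 fold change of −0.04. The higher count was 1 with a replicate block and 0 with spike-in scaling, with no filter, with slide row as a block, within slide row 1 and in the authors' deposited table. The lower count was 0 under each of those and with median scaling. Leaving out an array gave 1 to 2 higher and 0 to 1 lower: only without the first Foxo3 siRNA array did Tmem14c and Slc25a39 keep their calls, and Abcb6 kept its call without any 1 array. The median was 0.27 with median scaling, 0.34 with spike-in scaling, −0.11 with the mean of a gene's probes, 0.10 with slide row as a block and within row 1, 0.017 in the authors' deposited table, and −0.12 to 0.039 with an array left out. With the replicate block the adjusted p was 0.0549 for Tmem14c and 0.0503 for Slc25a39; the labels do not say that numbers pair samples, and 1 of 3 arrays correlated best with its own number. In the authors' deposited table the adjusted p was 0.0577 for Abcb6, 0.227 for Tmem14c and 0.252 for Slc25a39.

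Over all genes 5023 were called, against 3118 without nontargeting replicate 3, 2762 and 2714 without Foxo3 replicates 2 and 3, 2714 and 1982 without nontargeting replicates 1 and 2, 1399 with row as a block, 933 with spike-in scaling, 868 in the authors' deposited table, 531 within row 1 and 479 with no filter. Quantile normalization, normexp, the filter on all arrays, kept outlier spots and adjustment over genes left the counts of transporters at 2 and 1. Row and group were largely confounded, since 2 of 3 treated arrays lay in a row without controls; the cause of the lost calls was not tested.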

Other observations

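Of 13 iron-sulfur cluster assembly genes, which use the iron that mitoferrin-1 imports, 6 were called higher and 4 lower with Foxo3 siRNA, beside 13.0% and 13.1% of all genes. The higher count was 0 with spike-in scaling, within slide row 1, with no filter and in the authors' deposited table, and 2 without nontargeting replicate 2. The lower count was 1 with median scaling and 0 with spike-in scaling or no filter. It was 2 without replicate 2 of either group or nontargeting replicate 3. Both counts were 2 with slide row as a block, and the lower count was 2 in the authors' deposited table. Hscb, the co-chaperone that hands a new cluster on, averaged 16.7 times the array's 75th percentile with Foxo3 siRNA and 44.6 with nontargeting siRNA (limma log2 fold change −1.44, adjusted p = 0.00402). Iscu, the scaffold on which the cluster is built, averaged 15.5 with Foxo3 siRNA and 30.4 with nontargeting siRNA (−0.97, adjusted p = 0.00298), and its dimmer probe gave −1.55. Isca2, a later-acting assembly factor, rose by 0.79 (adjusted p = 0.00752) and Lyrm4, a partner of the cysteine desulfurase, by 0.69 (adjusted p = 0.00906).

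Of 17 genes of general mitochondrial content, 7 were called higher and none lower, with a median log2 fold change of 0.39, beside 13.0% higher and 13.1% lower of all genes. The higher count was 3 without replicate 2 of either group and 4 without Foxo3 siRNA replicate 3 or nontargeting replicate 1. Slc25a4, an ADP/ATP carrier of the inner membrane, averaged 6.24 with Foxo3 siRNA and 2.05 with nontargeting siRNA (1.62, adjusted p = 0.00186). Slc25a5, its close relative, rose by 0.77 (adjusted p = 0.00442), and the outer membrane channels Vdac1 and Vdac2 by 1.16 (adjusted p = 0.00553) and 0.53 (adjusted p = 0.0151). The summed signal of the 17 genes was 905 to 962 with Foxo3 siRNA, against 730 to 747 with nontargeting siRNA, while that of the 7 transporters was 351 to 386 with Foxo3 siRNA, against 345 to 357 with nontargeting siRNA. Bright probes weigh most in such sums. With Foxo3 siRNA and nontargeting siRNA in turn, Vdac1 averaged 159 and 71.2, and Cox4i1, the brightest of the 17, 262 and 275. Among the transporters Abcb10 averaged 135 and 150, and Tmem14c 115 and 83.9. With spike-in scaling 2 of the 17 were called higher, and within slide row 1 none was.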
